A study of Homo sapiens with 4 samples.

Results

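The genes described here are 10 heat shock genes, namely HSF1, HSPA1A, HSPA1B, HSPA8, HSPH1, DNAJB1, HSP90AA1, HSP90AB1, HSPB1 and HSPD1. They were picked by name from an RNA-seq table of 28412 genes, with earlier results of these data known. All 10 had a row in the table, and all 10 were among the 13300 genes with enough signal to be tested. After knockdown of LDB1, HSPA1A and HSPA1B, the inducible HSP70 genes, rose to 2.48 and 2.87 times their control level, and HSPB1, the small heat shock protein HSP27, rose to 1.56 times. HSPD1, the mitochondrial chaperonin HSP60, fell to 11.8% of its control level. Both HSP90 genes and DNAJB1 fell to between 55.2% and 68.1%, and HSPA8, the constitutive HSP70, to 85.3%, a call that was lost under other scalings. HSF1 and HSPH1 did not pass the test.

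To investigate what the loss of LDB1 does to transcripts, the study sequenced RNA of a leukemia cell line that the labels call NB4, a promyelocytic line. The LDB1 protein, named for its binding to LIM domains, bridges LMO2 and its partner transcription factors. There were 4 libraries of total RNA. In 2 of them (sh-NC, the controls) the cells carried the control genotype, and the labels give no treatment. The paper states that these control cells received a control vector, sh-NC, so they were not untreated. In the other 2 (sh-LDB1) LDB1 was knocked down by an shRNA. The study made 3 shRNAs against human LDB1 in a lentiviral vector with puromycin selection, and the sources used here do not say which of them was sequenced. The labels do not say that the libraries of a group came from separate cultures, so p-values measure the spread between these libraries, which may be technical. Levels are FPKM, fragments per kilobase of transcript, scaled to the depth of the library, so levels of different genes are compared per length. Fold changes are differences of log2(FPKM + 1) and were tested with limma across all 13300 genes with Benjamini-Hochberg adjustment. A gene is said to rise or fall if its adjusted p-value was below 0.05.

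Heat shock proteins are molecular chaperones, which bind other proteins while these fold, assemble or unfold. HSP70 binds short exposed stretches of a client protein in a cycle of ATP hydrolysis. That cycle is started by HSP40 partners such as DNAJB1 and reset by nucleotide exchange factors such as HSPH1. HSP90 takes over clients at a later stage, among them many kinases and steroid receptors. Small heat shock proteins such as HSPB1 hold unfolded proteins without using ATP. HSF1 is the transcription factor that trimerises on protein damage and binds heat shock elements, which are alternating GAA and TTC units, in the promoters of many of these genes. In red cell precursors, HSP70 is known as a protector of GATA1. Of the 10 genes, HSPD1 does not belong in the cytosol. Its product folds proteins in the mitochondrial matrix together with HSPE1, the HSP10 lid, although HSPD1 is also a heat shock gene.

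LDB1 itself measured 135 and 120 FPKM in the controls, against 10.2 and 9.47 FPKM after its knockdown, which left 7.73% of the control level (log2 fold change -3.56, limma adjusted p = 6.93e-05), so the targeted gene fitted its labels in all 4 libraries. The FPKM corresponded to 14592451 to 16822021 reads per library. Summed FPKM was 319063 and 319687 in the controls, against 285208 and 281397 after the knockdown, so it differed between the groups. Scaling the libraries to the same sum moved the median log2 fold change of all genes by 0.14, from -0.08 to 0.06, and moved the share of lower genes among those past a 2-fold change from 52.0% to 38.5%. Differences of that size between groups depend on the scaling. The label NB4 was also compared with marker lists. Of 14 erythroid markers tested, 14 fell, and their 15 genes summed to 4188 and 4374 FPKM in sh-NC and to 390 and 354 FPKM in sh-LDB1. Erythroid transcripts were thus abundant in the control libraries of a line labelled as promyelocytic. Among the granulocytic markers MPO and CTSG had no value to analyse here, and ELANE was listed at 0 except in sh-LDB1 replicate 1, where it had 0.182 FPKM. The 10 granulocytic markers with a value summed to 23.5 and 22.6 FPKM in sh-NC and to 81.1 and 78.3 FPKM in sh-LDB1, and 6 of the 8 tested rose. These markers moved with the same contrast as the heat shock genes, and their part in the results was not tested. In bulk RNA, fewer cells of a type and less RNA per cell cannot be told apart.

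Of the 10 heat shock genes, 3 rose and 5 fell. Among all genes tested, 29.9% rose and 37.4% fell, or 3983 and 4978 genes, and the balance turned to 4876 higher and 4047 lower with the same summed FPKM and to 4498 and 4427 with the median of ratios. The number of heat shock genes called is therefore not in itself a result about them. Past a fold change of 2, 2 heat shock genes rose and 1 fell, against 9.5% and 10.3% of all genes. The sh-NC and sh-LDB1 values did not overlap for 8 of the 10 genes, nor for 84.6% of all genes tested. What sets the members apart from one another is therefore which of them moved, in which direction and how far. Their median log2 fold change was -0.12, against -0.08 for all genes tested.

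The members differed widely in level. HSP90AB1 was the highest in both groups, above 99.9% of the tested genes, and it was followed in sh-NC by HSPA8, HSP90AA1, HSPB1, HSPD1 and HSPA1A. DNAJB1 and HSF1 came next, and their sh-NC values overlapped. HSPA1B and then HSPH1 were the lowest. In sh-LDB1, HSPB1 had moved up to rank 2 and HSPD1 had moved from rank 5 down to rank 8, while the values of HSPH1 and DNAJB1 overlapped at the bottom. The plot of FPKM by library shows these levels. Summed over the 10 genes, the transcripts made up 1.02% and 1.04% of all FPKM in the controls, against 0.921% and 0.926% in sh-LDB1.

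**Figure D1:**
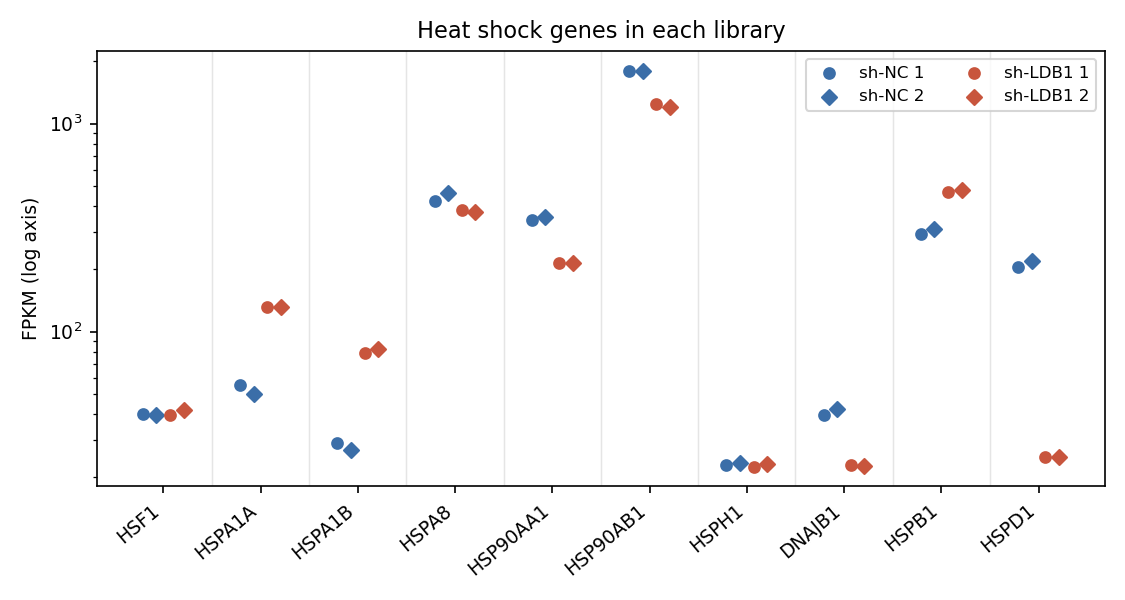
FPKM of the 10 heat shock genes on a log axis, one point per library, blue for sh-NC and red for sh-LDB1, with circles for replicate 1 and diamonds for replicate 2. HSPA1A, HSPA1B and HSPB1 lie higher in both sh-LDB1 libraries, HSPD1 drops from above 200 to about 24.9 FPKM, and the points of HSF1 and HSPH1 overlap between the groups.

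HSF1 (ENSG00000185122), the regulator of the heat shock response, was at 40.02 and 39.9 FPKM in the controls, against 39.8 and 41.8 FPKM after the knockdown. The groups overlapped, since sh-LDB1 replicate 1 was the lowest library and sh-LDB1 replicate 2 the highest. Its log2 fold change was 0.03 with a 95% confidence interval from -0.09 to 0.15 (limma adjusted p = 0.616). HSF1 passed the threshold as higher where the libraries were scaled to the same summed FPKM (0.20, limma adjusted p = 0.0223) and with voom on the recovered reads (0.14, limma adjusted p = 0.022), and its sign turned (-0.01) without sh-LDB1 replicate 2. A transcript level does not measure whether HSF1 protein is active, which requires its release from chaperones and binding to DNA. Of the other heat shock factors, HSF2 fell from 13.3 and 15.9 FPKM to 6.88 and 6.995 FPKM (log2 fold change -0.97, limma adjusted p = 0.0011). HSF4, which is known from the lens, rose from 5.80 and 4.24 FPKM to 10.5 and 9.69 FPKM (0.90, limma adjusted p = 0.00516). HSBP1, which binds HSF1 trimers and limits their activity, fell by 0.32 on the log2 scale (limma adjusted p = 0.00778).

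HSPA1A (ENSG00000204389, chromosome 6, 31815543 to 31817946, plus strand, GRCh38) and HSPA1B (ENSG00000204388, chromosome 6, 31827738 to 31830254, plus strand) are genes of a single exon, and their starts are 12195 bases apart. Both encode the HSP70 that cells induce on stress. HSPA1A was at 55.2 and 50.3 FPKM in the controls, against 131 FPKM in both knockdown libraries. That is a rise from 52.8 ± 3.46 to 131 ± 0.276 FPKM (SD, n = 2 each), with a log2 fold change of 1.29 (SE 0.06, limma adjusted p = 0.000157). HSPA1B was at 29.0 and 27.0 FPKM in the controls, against 78.6 and 82.2 FPKM after the knockdown. Its log2 fold change was 1.49 (SE 0.06, limma adjusted p = 0.00012). The groups did not overlap for either gene, and both rises were past the 2-fold threshold. Only 5.65% of the tested genes had a higher log2 fold change than HSPA1A and 3.89% than HSPA1B.

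The split of reads between the pair is uncertain. Their coding sequences are 1923 bases each and differ at 4 positions, and 72.4% of all 100-base stretches of the HSPA1A transcript are found unchanged in HSPA1B. The ratio of HSPA1A to HSPA1B was 1.90 and 1.87 in the controls, against 1.67 and 1.59 after the knockdown. With the FPKM of both added into 1 row, the log2 fold change was 1.38 (limma adjusted p = 0.000138), so the rise does not rest on how reads were shared out. The neighbour HSPA1L, whose start lies 260 bases from that of HSPA1A on the other strand and whose product works in sperm development, rose from 1.68 and 1.49 FPKM to 3.901 and 2.91 FPKM (0.76, limma adjusted p = 0.00877). HSPA6, an HSP70 that human cells make almost only on heat shock, stayed under the filter of 1 FPKM and was not tested. It was at 0.391 and 0.572 FPKM in the controls, against 0.105 and 0.111 FPKM after the knockdown, or 15, 20, 4 and 4 reads. Both sh-LDB1 values lay under both sh-NC values, the other way round from HSPA1A and HSPA1B.

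The 250 bases before the start of HSPA1A and HSPA1B are shown because these are the genes that rose together past 2-fold. Windows are from RefSeq on GRCh38.p14, chr6:31815293-31815542 and chr6:31827488-31827737, both on the plus strand. Capitals mark heat shock elements, searched on both strands as GAANNTTC or TTCNNGAA (2 units) and as GAANNTTCNNGAA or TTCNNGAANNTTC (3 units, each of which contains 2 of the former). Of 35116 windows of this length, 11.6% held an element of 2 units and 0.441% one of 3 units.
HSPA1A: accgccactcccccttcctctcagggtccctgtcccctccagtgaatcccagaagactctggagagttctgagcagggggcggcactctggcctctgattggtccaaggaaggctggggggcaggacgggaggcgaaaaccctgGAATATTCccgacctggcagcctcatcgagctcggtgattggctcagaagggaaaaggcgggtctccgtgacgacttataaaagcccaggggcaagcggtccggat
HSPA1B: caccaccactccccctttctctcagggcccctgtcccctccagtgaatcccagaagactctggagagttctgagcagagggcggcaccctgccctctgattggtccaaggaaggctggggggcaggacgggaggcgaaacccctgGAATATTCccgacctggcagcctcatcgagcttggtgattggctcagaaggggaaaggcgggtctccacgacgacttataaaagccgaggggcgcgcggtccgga
Both windows held the same 2-unit element, at -106 in HSPA1A and at -105 in HSPA1B, and neither held one of 3 units. Each also had 2 CCAAT boxes (CCAAT or ATTGG, in 32.0% of all windows) and a TATA box (TATAA or TTATA, in 18.9%). A match is a description of the letters and says nothing of binding in these cells.

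HSPA8 (ENSG00000109971, chromosome 11, 123057489 to 123063230, minus strand), the HSP70 that is made at all times and that also uncoats clathrin, behaved differently from the inducible pair. Its FPKM was 426 and 465 in the controls, against 382 and 378 after the knockdown. Both sh-LDB1 libraries were lower than both sh-NC libraries, with a log2 fold change of -0.23 (SE 0.06, limma adjusted p = 0.0251). This call is not firm. It was lost with both other scalings (-0.05 with limma adjusted p = 0.45 for the same summed FPKM, and -0.13 with 0.116 for the median of ratios), without a filter (0.0905), without a trend (0.051), and without sh-LDB1 replicate 1 (0.129) or 2 (0.152). Together the transcripts of HSPA8, HSPA1A and HSPA1B came to 510 and 543 FPKM in sh-NC and to 592 and 591 FPKM in sh-LDB1. Within that sum, HSPA1A and HSPA1B made up 16.5% and 14.2% in the controls, against 35.4% and 36.04% after the knockdown. The makeup of the HSP70 transcripts thus moved from 15.4% ± 1.62 to 35.7% ± 0.447 inducible (SD, n = 2 each), with no overlap between the groups. No test was run on this share, which is built from the values given above. The counter is not given, so reads that match both HSPA1A and HSPA1B may be missing from each library. The size of the share and of the sum is therefore uncertain.

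**Figure D2:**
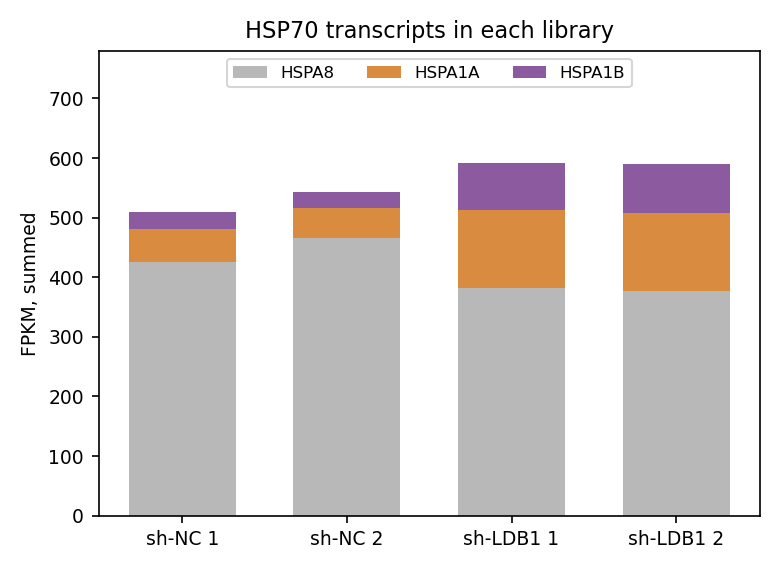
Summed FPKM of the HSP70 genes in each library, as bars from 0 split into HSPA8 (grey), HSPA1A (orange) and HSPA1B (purple). The inducible genes take 16.5% and 14.2% of the bar in the controls and 35.4% and 36.04% in sh-LDB1.

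The window before the HSPA8 start also holds an exon of another HSPA8 transcript, so only stretches of 30 bases around its elements are shown, chr11:123062346-123062375 and chr11:123062171-123062200 on the minus strand, read on that strand. They are given because HSPA8 differed from HSPA1A and HSPA1B in direction and in its elements.
HSPA8 first element: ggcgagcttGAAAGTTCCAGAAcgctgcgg
HSPA8 second element: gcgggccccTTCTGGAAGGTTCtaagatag
Each of these is an element of 3 units, at -230 and at -55. Of all windows, 0.441% held an element of this kind.

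Of the HSP70 partners among the members, DNAJB1 fell and HSPH1 did not pass the test. DNAJB1 (ENSG00000132002, chromosome 19, 14514769 to 14560391, minus strand), the HSP40 that pairs with inducible HSP70, was at 39.9 and 42.4 FPKM in the controls, against 22.8 and 22.6 FPKM after the knockdown. It fell by 0.83 on the log2 scale (SE 0.05, limma adjusted p = 0.000286) and moved in the opposite direction to HSPA1A and HSPA1B, with no overlap between groups. HSPH1 (ENSG00000120694, chromosome 13, 31134973 to 31162388, minus strand), the HSP110 that exchanges the nucleotide of HSP70, was at 23.0 and 23.3 FPKM in the controls, against 22.4 and 23.2 FPKM after the knockdown. Its groups overlapped, and the log2 fold change was -0.02 with a 95% confidence interval from -0.14 to 0.10 (limma adjusted p = 0.712). The sign of HSPH1 turned with the same summed FPKM (0.15, limma adjusted p = 0.0472), with the median of ratios (0.08), with voom (0.09) and without sh-LDB1 replicate 1 (0.00219).

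DNAJB1 had 2 separate elements of 2 units, at -77 and at -47, and its window too overlaps an exon of another DNAJB1 transcript. The 30 bases around each, chr19:14518456-14518485 and chr19:14518426-14518455 on the minus strand, follow each other directly and are shown for comparison with the window of HSPA1A, the partner that moved the other way.
DNAJB1 first element: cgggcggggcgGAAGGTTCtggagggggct
DNAJB1 second element: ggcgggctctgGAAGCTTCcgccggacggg
HSF1 and HSPH1 had no window at the start used here.

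Among 23 tested genes of the wider HSP70 system, other than the members, 7 rose and 12 fell (median log2 fold change -0.16). That lean rests on the scaling, with 8 higher and 8 lower for the same summed FPKM, and 8 and 9 for the median of ratios. DNAJB2, an HSP40 that hands clients to the proteasome, rose from 2.49 and 2.29 FPKM to 26.6 and 26.2 FPKM (3.01, limma adjusted p = 6.77e-05). DNAJB4, an HSP40 of the same class as DNAJB1, rose from 5.96 and 6.63 FPKM to 17.6 and 16.1 FPKM (1.29, limma adjusted p = 0.000288). These J-domain proteins therefore moved opposite to DNAJB1, and DNAJA1, at 83.3 and 78.9 FPKM in sh-NC and 78.0 and 77.8 FPKM in sh-LDB1, did not pass the test (limma adjusted p = 0.312). BAG6, which guards hydrophobic proteins, rose by a log2 fold change of 0.74, and BAG3, an HSF1 target that links HSP70 to autophagy, rose from 22.7 and 23.0 FPKM to 31.2 and 31.9 FPKM (0.45, limma adjusted p = 0.000959). Among genes averaging 5 FPKM or more, the largest falls were those of DNAJC9 (-1.45), which is a chaperone of histones, and of the nucleotide exchange factors BAG1 (-1.24) and BAG2 (-1.03). DNAJC9 is a J-domain protein too and fell like DNAJB1, so J-domain proteins went both ways.

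Both cytosolic HSP90 genes fell. HSP90AB1 (ENSG00000096384, chromosome 6, 44246166 to 44253888, plus strand), the constitutive isoform, was at 1799 and 1798 FPKM in the controls, against 1242 and 1208 FPKM after the knockdown. Its log2 fold change was -0.55 (SE 0.05, limma adjusted p = 0.000864). HSP90AA1 (ENSG00000080824, chromosome 14, 102080742 to 102139699, minus strand), the isoform that stress induces, was at 342 and 357 FPKM in the controls, against 214 and 213 FPKM after the knockdown. It fell by 0.71 on the log2 scale (SE 0.04, limma adjusted p = 0.000314). Groups did not overlap for either gene, and neither change reached 2-fold. HSP90AB1 exceeded HSP90AA1 in level by 5.26 and 5.04 times in sh-NC and by 5.80 and 5.68 times in sh-LDB1, with no overlap of this ratio between the groups. The fall of HSP90AA1 left 61.1% of its level and that of HSP90AB1 left 68.1%, and the difference between them was not tested. Their sum went from 2148 ± 9.29 to 1438 ± 24.3 FPKM (SD, n = 2 each), which is the largest loss of FPKM among the HSP70, HSP90, HSPB1 and HSPD1 transcripts.

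The window before the HSP90AA1 start, chr14:102087045-102087294 on the minus strand, is shown since the isoforms differ in it.
HSP90AA1: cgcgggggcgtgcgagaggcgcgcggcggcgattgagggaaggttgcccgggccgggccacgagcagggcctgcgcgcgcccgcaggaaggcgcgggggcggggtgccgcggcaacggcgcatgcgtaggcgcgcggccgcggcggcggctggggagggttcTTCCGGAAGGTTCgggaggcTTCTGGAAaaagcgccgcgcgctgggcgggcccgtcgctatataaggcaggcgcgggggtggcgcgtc
It held an element of 3 units at -88 and a separate one of 2 units at -68. The window of HSP90AB1 held none of either kind, and both isoforms had a TATA box. The pair thus fell together with and without such an element in these windows. RefSeq gave 2 windows for HSP90AA1 and 3 for HSP90AB1, and only 1 of each is described here.

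HSP90 works with co-chaperones, and of 20 tested, 13 fell and 3 rose (median log2 fold change -0.43). With the same summed FPKM 10 fell and 4 rose, and with the median of ratios 12 fell and 4 rose. The immunophilins FKBP5 and FKBP4, which join HSP90 in steroid receptor complexes, were among those that fell furthest. FKBP5 went from 27.6 and 28.1 FPKM to 9.64 and 8.99 FPKM (-1.49, limma adjusted p = 0.000116). FKBP4 went from 74.2 and 67.6 FPKM to 27.8 and 28.1 FPKM (-1.31, limma adjusted p = 0.000158). RUVBL1, an ATPase of the R2TP complex that assembles large machines with HSP90, fell by 1.31 on the log2 scale. CDC37, which brings kinases to HSP90, was at 101 and 90.1 FPKM in the controls, against 105 and 116 FPKM after the knockdown. It did not pass the test (limma adjusted p = 0.0761). Its log2 fold change was 0.21 with a 95% confidence interval from -0.01 to 0.42, so a small rise is not excluded. AHSA1, which speeds up the ATPase of HSP90, did not pass either (limma adjusted p = 0.157).

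HSPB1 (ENSG00000106211, chromosome 7, 76302673 to 76304295, plus strand), the small heat shock protein HSP27, was at 296 and 311 FPKM in the controls, against 468 and 481 FPKM after the knockdown. It rose from 304 ± 10.98 to 474 ± 8.90 FPKM (SD, n = 2 each), with a log2 fold change of 0.64 (SE 0.05, limma adjusted p = 0.000532). The groups did not overlap, and in sh-LDB1 HSPB1 stood above HSPA8. Its window, chr7:76302423-76302672 on the plus strand, is shown as that of the other gene that rose.
HSPB1: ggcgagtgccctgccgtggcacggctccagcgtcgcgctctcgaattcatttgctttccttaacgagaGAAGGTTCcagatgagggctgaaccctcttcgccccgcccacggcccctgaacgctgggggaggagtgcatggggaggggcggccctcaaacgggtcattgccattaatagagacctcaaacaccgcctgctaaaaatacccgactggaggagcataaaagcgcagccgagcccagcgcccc
It held an element of 2 units at -182 and none of 3 units. The other small heat shock proteins were far lower. CRYAB, a crystallin of lens and muscle, fell from 12.3 and 11.3 FPKM to 8.81 and 9.39 FPKM (-0.34, limma adjusted p = 0.00953), a call that was lost with the same summed FPKM and without sh-LDB1 replicate 1. Of the 7 with a value, 5 averaged under 1 FPKM over the 4 libraries and were not tested. One of these, HSPB7, a small heat shock protein of heart and muscle named after its values were seen, was at 0.126 and 0.139 FPKM in the controls, against 1.80 and 1.67 FPKM after the knockdown, or 8, 8, 113 and 99 reads. Its groups did not overlap.

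HSPD1 (ENSG00000144381, chromosome 2, 197486584 to 197516737, minus strand), the mitochondrial HSP60, had the largest change of the 10 genes. It was at 205 and 219 FPKM in the controls, against 24.9 FPKM in both knockdown libraries. This is a fall from 212 ± 9.80 to 24.9 ± 0.0539 FPKM (SD, n = 2 each), or 8.50-fold, with a log2 fold change of -3.04 (SE 0.05, limma adjusted p = 6.8e-05). The reads behind it were 14058 and 13678 in the controls, against 1691 and 1602 after the knockdown. The fall placed HSPD1 among the most reduced transcripts, since 0.173% of tested genes had a lower log2 fold change. HSPD1 has many processed pseudogenes that can take some of its reads, and 7 of them had a row. The highest, HSPD1P1, was chosen after its values were seen. It was at 5.16 and 6.13 FPKM in the controls, against 0.723 and 0.574 FPKM after the knockdown. Whether reads of HSPD1 were left unassigned or went to pseudogenes without a row was not tested.

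HSPE1, the HSP10 that caps the HSPD1 ring, starts 539 bases from HSPD1 on the other strand. It fell too, from 34.2 and 26.4 FPKM to 11.6 and 10.7 FPKM (-1.36, limma adjusted p = 0.00116). The ratio of HSPD1 to HSPE1 transcripts was 5.98 and 8.26 in the controls, against 2.14 and 2.33 after the knockdown and its groups did not overlap. The difference between the falls was not tested. The 30 bases around the element of HSPD1, chr2:197500061-197500090 on the minus strand, are shown because this is the gene that fell furthest, and only these because an exon of another HSPD1 transcript overlaps the window.
HSPD1: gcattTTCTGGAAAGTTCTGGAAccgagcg
Here 2 elements of 3 units overlap, at -245 and at -240, and make up a run of 18 bases. The window of HSPE1, chr2:197500129-197500378 on the plus strand, held none. The HSPD1 run lies between the starts of HSPD1 and HSPE1 but outside that window, so HSPE1 is not shown to lack the run.

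Side by side, the windows of 8 members gave this description, with no test. HSPA8, HSP90AA1 and HSPD1 held an element of 3 units, and all 3 genes fell, HSPA8 only under some settings. HSPA1A, HSPA1B, HSPB1 and DNAJB1 held 2-unit elements alone, and HSPA1A, HSPA1B and HSPB1 rose while DNAJB1 fell. HSPA1A and HSPA1B hold the same element, so they are not separate cases. HSP90AB1 held neither and fell. Only units spelled exactly were counted, so a 2-unit element may continue with a unit that has a changed letter. The grouping rests on that spelling.

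Fold changes of the members were also set beside those of their counterparts in other compartments. In mitochondria, HSPA9, the HSP70 of the matrix, fell from 77.5 and 79.2 FPKM to 59.4 and 58.8 FPKM (-0.40, limma adjusted p = 0.00111). TRAP1, the mitochondrial HSP90, fell from 46.8 and 45.4 FPKM to 20.8 and 21.0 FPKM (-1.10, limma adjusted p = 0.000122). In the endoplasmic reticulum the direction was the opposite. HSPA5, the HSP70 there (BiP), rose from 183 and 193 FPKM to 402 and 414 FPKM (1.12, limma adjusted p = 0.000152), and HSP90B1, the HSP90 there (GRP94), rose from 194 and 208 FPKM to 256 and 258 FPKM (0.35, limma adjusted p = 0.00377). The ratio of HSPA8 to HSPA5 went from 2.33 and 2.42 in sh-NC to 0.951 and 0.913 in sh-LDB1. That of HSP90AB1 to HSP90B1 went from 9.28 and 8.64 to 4.84 and 4.69. Both ratios had no overlap between groups.

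**Figure D3:**
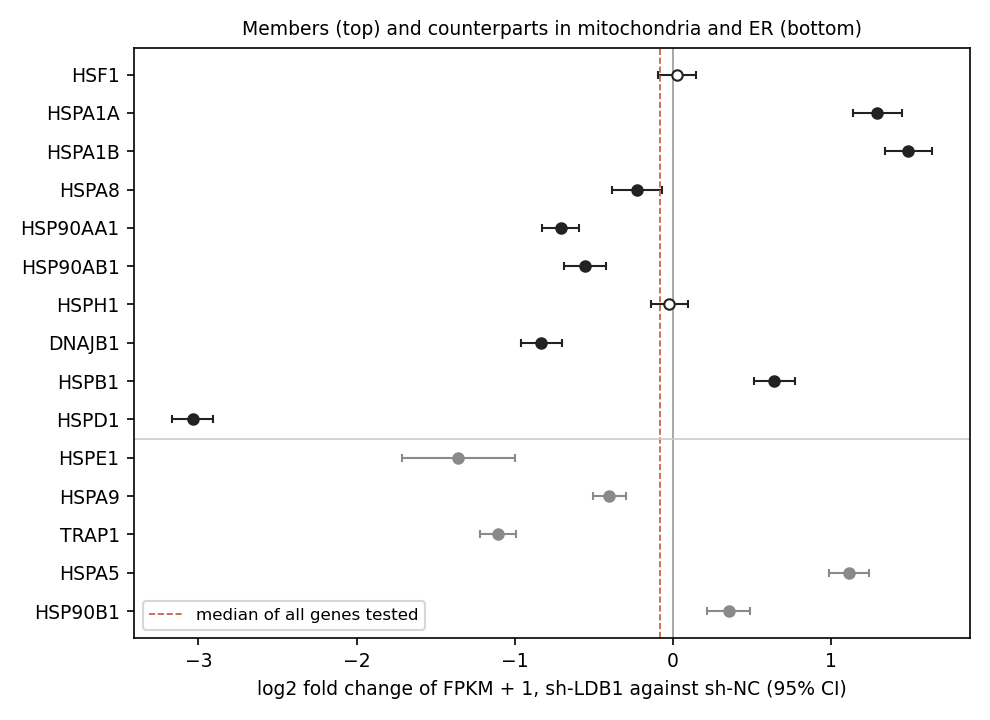
Log2 fold change of FPKM + 1 in sh-LDB1 against sh-NC with its 95% confidence interval, for the 10 members (black) and for mitochondrial and endoplasmic reticulum counterparts (grey), with open points where the limma adjusted p was 0.05 or more and a dashed line at the median of all genes tested. HSPD1 lies at -3.04, HSPA1A and HSPA1B lie at 1.29 and 1.49, and the intervals of HSF1 and HSPH1 include 0.

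Other heat-inducible genes, members excluded, also went both ways. Of 18 tested, 5 rose and 9 fell, with a median log2 fold change of -0.15. With the same summed FPKM the counts were 6 and 6, and with the median of ratios 6 rose and 9 fell. Among those that rose, IER5, a feedback gene of HSF1, went from 31.2 and 30.2 FPKM to 77.8 and 80.8 FPKM (1.34, limma adjusted p = 0.000106). Of the genes averaging 5 FPKM or more, HSPE1, FKBP4 and CACYBP (-0.73) fell furthest. UBB, a stress-induced polyubiquitin gene, fell from 198 and 168 FPKM to 140 and 137 FPKM (-0.39, limma adjusted p = 0.0149), and UBB was chosen after its values were seen.

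The cytosolic chaperonin TRiC, which folds actin and tubulin, and its partner prefoldin were tested with 14 genes, of which 10 fell and 0 rose (median -0.58). With the same test at an unadjusted p-value below 0.05, 0 rose as well, while 2 rose by the limma test after scaling to the same summed FPKM and 2 with voom. CCT2, CCT7 and CCT5, subunits of the ring, fell furthest. CCT2 went from 106 FPKM in both sh-NC libraries to 45.6 and 45.8 FPKM (-1.20, limma adjusted p = 9.57e-05). Of 14 mitochondrial chaperones and proteases, 9 fell and 3 rose (median -0.45). AFG3L2, a protease of the inner membrane, showed the largest fall (-1.61), followed by HSPE1 and GRPEL1 (-1.25), the exchange factor of HSPA9, while SPG7 (0.82), which forms a protease with AFG3L2, and YME1L1 (0.68) rose. Of 15 endoplasmic reticulum chaperones, 11 rose and 2 fell (median 0.51). DNAJB9 (1.97), HSPA13 (1.38) and DNAJC3 (1.20), all of them partners or relatives of HSP70, rose most, and the disulfide isomerases PDIA3 (-0.63) and PDIA6 (-0.34) fell. Counts and medians of the lists describe these genes beside the 29.9% and 37.4% of all genes that rose and fell, and no test was made on a list. Some genes stand on more than 1 list.

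**Figure D4:**
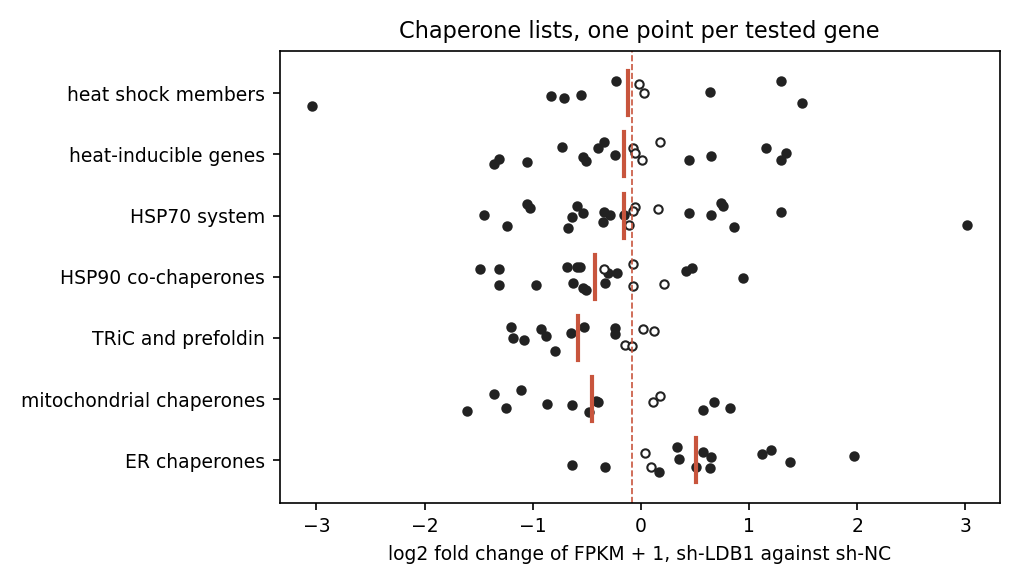
Log2 fold change of FPKM + 1 in sh-LDB1 against sh-NC for each tested gene of the chaperone lists, filled where the limma adjusted p was below 0.05, with a red bar at each list's median and a dashed line at the median of all genes tested (-0.08). Medians run from -0.58 for TRiC and prefoldin to 0.51 for endoplasmic reticulum chaperones, and the heat shock members spread from -3.04 to 1.49.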

How the data were processed

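RNA-seq was performed on 4 libraries, 2 of each group, made with an Illumina TruSeq kit. The authors filtered the reads and mapped them with HISAT2 2.0.5 to hg38, per the submitters' processing notes, and deposited 1 table of FPKM per gene and library. The counter, annotation and use of strand are not given in the sources used here. No column of per-sample values was without a sample (0).

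Genes averaging 1 FPKM or more were kept, and log2(FPKM + 1) was compared with limma 3.58.1 in R 4.3.3 (eBayes with a trend, no replicate block, two-sided). A fold change on this scale understates that of low genes. Values were processed with Python 3.11.15, pandas 2.3.3 and numpy 2.4.6. A count test was not the main test, since the values were FPKM. Every FPKM is a whole multiple of what 1 read is worth, and with it 100% of values came out as whole reads (within 0.005). For genes with many reads, the read numbers given are the smallest whole ones whose gene length was plausible. For genes with few reads, they are those whose length came closest to GENCODE 44. The fitted length was within 10% of GENCODE 44 for 84.6% of genes, a share that is in part set by this choice. Recovered reads were tested with voom, an alternative chosen after seeing the data. Recovery and fit were tested on simulated data.

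The members and lists were chosen with earlier results of these data known. Named genes are the members, LDB1, close relatives and counterparts in other compartments (HSPA5, HSP90B1, HSPA9, TRAP1, HSPE1, HSPA1L, HSPA6, HSF2 and BAG3), the markers, and per list the 3 largest rises and 3 largest falls past the adjusted p-value averaging 5 FPKM or more. Of these, 2 that the list rule names are not reported here. DNAJA1, CDC37, AHSA1 and UBB were added after their values were seen. Where 2 gene IDs shared a symbol, the row with the higher mean was used. Promoter windows, from RefSeq, were used where the start lay at the GENCODE 44 canonical start. Windows at other starts of HSP90AA1, HSP90AB1, DNAJB1 and HSPD1 were not described. Alternatives were other pseudocounts (0.1 and 0.01), no filter, a filter of 5 FPKM, other scalings, a replicate block, eBayes without a trend, an adjusted p-value of 0.01, and leaving out each library.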

Additional observations from a re-analysis of the deposited data

How the results depend on the processing

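The changes of HSPA1A, HSPA1B, HSP90AA1, HSP90AB1, DNAJB1, HSPB1, HSPD1 and LDB1 kept their direction and stayed below a limma adjusted p of 0.05 under all alternatives run, with log2 fold changes of 1.23 to 1.47, 1.38 to 1.66, -0.74 to -0.54, -0.57 to -0.38, -0.87 to -0.66, 0.61 to 0.81, -3.09 to -2.87 and -3.69 to -3.40 in that order. HSPA8 lost its call under 6 of 13 alternatives. Without 1 library, HSF1 ranged from -0.00743 to 0.0626 and HSPH1 from -0.042 to 0.00219, and their signs turned without sh-LDB1 replicate 2 and 1. HSPH1 also turned to 0.146 with the same summed FPKM, to 0.0764 with the median of ratios and to 0.0926 with voom. The cause was not tested. With the same summed FPKM, 5 heat shock genes were higher, as were 2 TRiC or prefoldin genes and 5 mitochondrial chaperones, while 0 other small heat shock proteins (CRYAB lost its call) and 1 endoplasmic reticulum chaperone were lower. Voom gave 2053 genes higher past 2-fold against 1264, with 2 TRiC or prefoldin genes and 5 mitochondrial chaperones higher. A filter of 5 FPKM, which tests fewer genes, left 2485 higher genes in place of 3983, 710 past 2-fold, and 1 higher HSP90 co-chaperone, and an adjusted p-value of 0.01 left 1 as well. Without a filter 1 other small heat shock protein, HSPB7, was higher. Leaving out 1 library at a time gave 4 to 5 lower heat shock genes, 1 to 2 lower heat shock factors (1 without sh-LDB1 replicate 2), 1 to 4 higher HSP90 co-chaperones (1 without either sh-LDB1 replicate), 0 to 2 lower small heat shock proteins, 0 to 1 higher TRiC or prefoldin genes and 1 to 2 lower endoplasmic reticulum chaperones (1 without sh-LDB1 replicate 1). A fit with the replicate block gave 3890 higher and 4808 lower genes in all, and 3 and 5 among the heat shock genes. Deviations of same-numbered libraries correlated at 0.0196 across 13300 genes. With only 2 pairs, this cannot settle whether replicate numbers pair the libraries. With 2 libraries a group, small differences such as that of HSPA8 are at the limit of what these data resolve.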
